A study of Mus musculus with 4 samples.

Results

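The genes described here are 37 genes of DNA replication and S phase. They encode the licensing and helicase proteins of replication origins, the polymerases and primase, the sliding clamp and its loader, enzymes of nucleotide supply, G1/S regulators and proteins that copy chromatin or hold sister chromatids together. They were chosen by gene symbol from the table of read counts, and all 37 were found among its 21878 genes. The counts came from bone marrow-derived macrophages (BMDMs), which are macrophages grown from marrow cells with the growth factor M-CSF, of C57BL/6 mice given as 8 weeks of age. In both groups the macrophages had shared medium for 48 hours, by the labels, with MC38 mouse colon cancer cells held apart in transwell inserts. Elsewhere the study names a shorter coculture for this experiment and, for its pathway analysis, macrophages of Apc Min/+ mice with and without the knockdown, and the labels were followed here. There were 2 libraries labelled WT (wild type genotype) and 2 labelled anti-Act1 (macrophages of mice with a macrophage-specific knockdown of Act1, an adaptor protein of interleukin-17 receptor signaling that the gene Traf3ip2 encodes). The promoter that drives the knockdown was not given in the sources used here. The study names 2 biological replicates per condition, but no label ties a library to a mouse, so the p-values below measure only the spread between these libraries.

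Replication starts stepwise. In G1 phase, Cdc6 and Cdt1 load the ring-shaped Mcm2-7 helicase onto origins, and in S phase Cdc45 and the GINS complex join it and unwind the DNA. DNA polymerase alpha and primase then lay down primers, the clamp Pcna is loaded by replication factor C, and polymerases delta and epsilon copy the strands. Many of these genes are transcribed at the G1/S boundary under E2F factors, and M-CSF drives division of macrophage precursors, so their mRNA levels are widely read as a mark of cycling cells.

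The comparison asked whether mRNA of the replication genes differed between macrophages labelled anti-Act1 and WT after contact with tumor cell medium. Of the 37 genes, 6 fell in the libraries labelled anti-Act1, namely Mcm3, Mcm5, Prim1, Prim2, Rrm1 and Esco2, and 1 rose, E2f1. Apart from Esco2, which had few reads, the falls were small, between 0.20 and 0.62 on the log2 scale. Most of the other members leaned the same way without passing the test. The fork genes Pcna, Pold1, Rfc4, Rfc5, Lig1 and Rpa2 and the licensing gene Cdc6 were among those with overlapping groups.

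Differences are log2 fold changes, anti-Act1 minus WT, from the edgeR quasi-likelihood fit, and a gene counts as called at a Benjamini-Hochberg adjusted p under 0.05 over all genes tested. By this test, 7 of 37 members (18.9%) were called, against 20.7% of the 12494 genes tested. The lower members numbered 6 (16.2%), against 9.76% of all genes, and the higher ones 1 (2.7%), against 10.9% of all genes. Among the 6, Esco2 passed the filter on low counts only through the libraries labelled WT, so it could hardly have been called higher. The share of members called in either direction was thus near that of genes at large. The median log2 fold change of the members was -0.14, against -0.0046 over all genes tested, and 29 members (78.4%) had a value below 0, against 51% of all genes. In 17 members (45.9%) both libraries labelled anti-Act1 lay below both labelled WT, against 28.7% of all genes, and in 3 members (8.11%) they lay above, against 28.4%. The other 17 members had overlapping groups. These shares describe the list and were not tested, and the number of cells in cycle and the RNA per cell cannot be told apart in bulk samples.

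**Figure D1:**
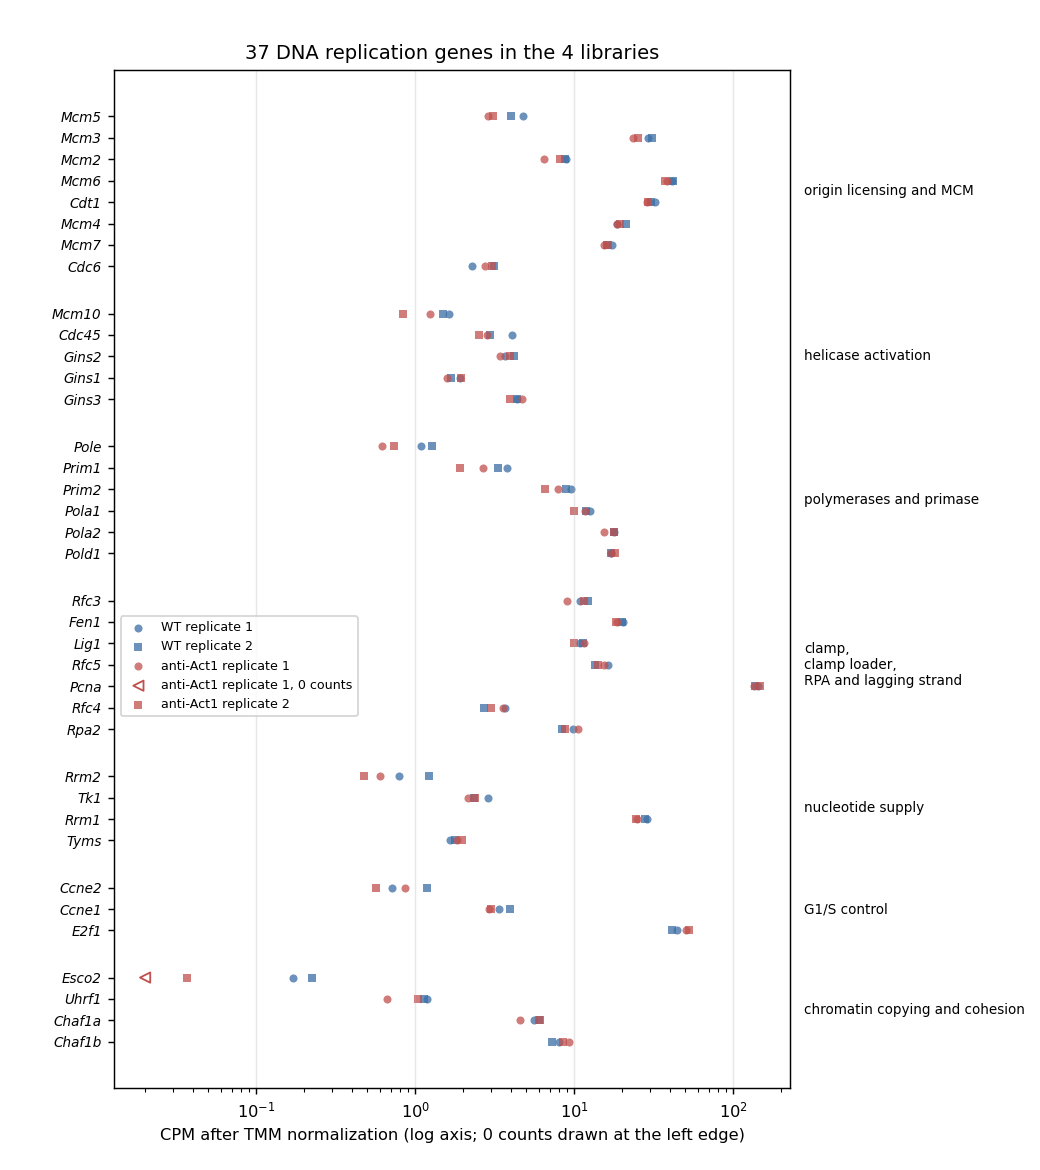
Level of each of the 37 members in each library, in CPM after TMM normalization on a log axis, grouped by role. Blue points are the 2 libraries labelled WT and red points the 2 labelled anti-Act1; in most rows the 4 points lie close together, and only Esco2 has a library with 0 counts, drawn as an open triangle at the left edge.

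The labels could be checked only in part. Traf3ip2 was at 6.98 and 7.54 CPM (counts per 1000000 reads after TMM normalization) under the WT label and at 9.63 and 7.84 CPM under the anti-Act1 label. It was not lower in the latter pair (log2 fold change 0.27, SE 0.12, edgeR adjusted p = 0.117), with 0.11 when anti-Act1 replicate 1 was left out and 0.41 (edgeR adjusted p = 0.0377) when anti-Act1 replicate 2 was. Act1 protein was not measured in these libraries. They are therefore referred to by label throughout and each direction below holds only as far as the labels do. The Y-linked gene Ddx3y was at 88.9 and 97.0 CPM under the WT label and at 0 counts under the anti-Act1 label. This Y-linked difference, and any difference of sex between the mice of the groups, goes with the group label. Its part was not tested and cannot be told apart from that label in any comparison here, that of the X-linked member Pola1 included. Totals ran from 55435063 to 75062945 counts per library. Macrophage markers were abundant, with a summed level of 25024 to 26548 CPM over 10 genes. Of 11 epithelial markers that could mark MC38 cells, Krt8, Krt18, Krt20, Cldn3, Cldn4 and Cdx2 were at 0 counts in every library, 8 had at most 3 counts anywhere, and the list summed to 0.330 to 0.898 CPM. Markers of fibroblasts summed to 0.453 to 0.824 CPM, of dendritic cells to 4.26 to 5.31 CPM, of B cells to 2.91 to 4.03 CPM and of erythroid cells to 0.549 to 0.810 CPM, with no gene called. The T cell list summed to 25.2 to 31.0 CPM, nearly all of it Cd4, which was higher in the libraries labelled anti-Act1.

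The Mcm2-7 helicase genes leaned lower as a whole. All 6 subunit genes had values below 0, against 51% of all genes tested, with a median log2 fold change of -0.21. Of the 6, 2 were called lower, against 9.76% of all genes. Their summed level was 119.6 and 122.4 CPM under the WT label and 104.7 and 109.0 CPM under the anti-Act1 label, so the groups did not overlap. Mcm4 and Mcm7, the subunit genes with the smallest values, did overlap.

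Mcm3 encodes a subunit of the ring (chr1:20802968-20820312 on the minus strand of GRCm38, GENCODE M21). It had 28.9 and 30.9 CPM under the WT label and 23.5 and 25.3 CPM under the anti-Act1 label. The log2 fold change came to -0.29 (SE 0.07, edgeR adjusted p = 0.00184). Mcm3 was thus lower in both libraries labelled anti-Act1 by more than the spread between replicates. Over the alternatives its edgeR, DESeq2 or limma adjusted p ran from 0.000773 to 0.0755, the highest without anti-Act1 replicate 1, where the log2 fold change was -0.24 and the call was lost.

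Mcm5 (chr8:75109569-75128439, plus strand) encodes the subunit that closes the ring beside Mcm2. It stood at 4.74 and 3.98 CPM under the WT label and 2.88 and 3.06 CPM under the anti-Act1 label. The log2 fold change came to -0.55 (SE 0.17, edgeR adjusted p = 0.0124), the steepest of the 6 subunits. Leaving out WT replicate 1 ended the call (log2 fold change -0.42, edgeR adjusted p = 0.158), as did leaving out anti-Act1 replicate 1 (-0.51, edgeR adjusted p = 0.0893), within a range of 0.00449 to 0.158 over all alternatives.

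The other subunits did not pass the test. Mcm2 was at 8.90 and 8.70 CPM under the WT label and 6.44 and 8.17 CPM under the anti-Act1 label (log2 fold change -0.27, SE 0.12, edgeR adjusted p = 0.115). Anti-Act1 replicate 1 was the lowest library for Mcm2, whose value was -0.10 (edgeR adjusted p = 0.733) without it and -0.45 (edgeR adjusted p = 0.0267) without anti-Act1 replicate 2. Mcm6, the most abundant subunit transcript per length at 9.84 to 11.4 FPKM (the deposited level scaled for transcript length and depth), was at 41.2 and 41.6 CPM under the WT label and 37.99 and 36.94 CPM under the anti-Act1 label (log2 fold change -0.14, SE 0.06, edgeR adjusted p = 0.108). Mcm4 and Mcm7 had log2 fold changes of -0.08 and -0.07. Exons of Mcm7 overlap those of Ap4m1 and Cops6 on the opposite strand, and since no strand setting is given, reads there cannot be assigned with certainty.

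Of the 2 loading factors, Cdt1 was at 32.2 and 30.1 CPM under the WT label and 28.6 and 29.1 CPM under the anti-Act1 label (log2 fold change -0.11, SE 0.07, edgeR adjusted p = 0.28). Cdc6 was at 2.26 and 3.11 CPM against 2.75 and 3.02 CPM (0.10, SE 0.19). The groups overlapped for Cdc6 but not for Cdt1, and neither passed the test.

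Promoter windows from RefSeq (GRCm38.p6, 250 bases before to 50 after each transcript start) were available for 30 of the 37 members, as 35 windows, and were searched on both strands for the E2F forms TTTCCCGC, TTTGGCGC, TTTCGCGC and TTTGCCGC, which can overlap one another. At least 1 form was present in 12 of 35 member windows (34.3%), against 2.26% of all 32851 windows and 3.79% of the 12283 windows of tested genes. The 12 genes with a match were Cdc6, Cdt1, Gins3, Lig1, Mcm3, Mcm5, Mcm6, Mcm7, Pola1, Pold1, Rfc3 and Uhrf1. No window was used for Mcm4, Gins1, Gins2, Esco2, Pole, Prim2 and Ccne2. The stretches below show the matches in 4 subunits of the helicase, in the polymerase alpha gene Pola1 and in Uhrf1. Each runs 5′ to 3′ on the gene's strand with the matched letters in capitals. Called genes can thus be set beside genes that did not pass the test. The start meant is that of the window searched. For Uhrf1 and Mcm7 this start, and the stretch shown, lie inside the gene as placed by GENCODE M21. The other window of each of these genes held no match.
Mcm3, chr1:20820266-20820294, minus strand, past the start: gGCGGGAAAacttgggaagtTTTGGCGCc
Mcm5, chr8:75109326-75109397, plus strand, before the start: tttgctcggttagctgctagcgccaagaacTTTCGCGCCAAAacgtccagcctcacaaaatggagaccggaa
Mcm6, chr1:128359715-128359845, minus strand, before the start: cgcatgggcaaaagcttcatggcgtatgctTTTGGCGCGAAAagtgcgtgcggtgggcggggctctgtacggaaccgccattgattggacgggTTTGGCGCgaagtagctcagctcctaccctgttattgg
Mcm7, chr5:138172011-138172078, minus strand, before the start: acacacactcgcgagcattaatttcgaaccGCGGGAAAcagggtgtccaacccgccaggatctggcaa
Pola1, chrX:93632256-93632323, minus strand, before the start: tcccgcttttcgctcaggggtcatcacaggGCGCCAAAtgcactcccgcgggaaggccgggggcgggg
Uhrf1, chr17:56304098-56304165, plus strand, before the start: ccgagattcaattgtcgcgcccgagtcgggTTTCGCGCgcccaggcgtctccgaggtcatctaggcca

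In Mcm5 and Mcm6 a pair of forms overlapped, 1 on each strand, and Mcm6 held one more match nearer its start. Mcm7 had a further match past the start of the same window that is not shown. Members with and without a match had like medians. The 12 members with a match had a median log2 fold change of -0.13, with Mcm3 and Mcm5 called lower. The 18 members with a window but no match also had a median of -0.13, with Prim1 and Rrm1 called lower. The CCAAT box (CCAAT) was in 54.3% of member windows against 37.7% of windows of tested genes, and the CHR letters TTTGAA, known from genes of G2 and mitosis, were in 11.4% against 11.8%. These letters are descriptions of the windows, not binding sites, and a window without them says nothing of a factor.

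**Figure D2:**
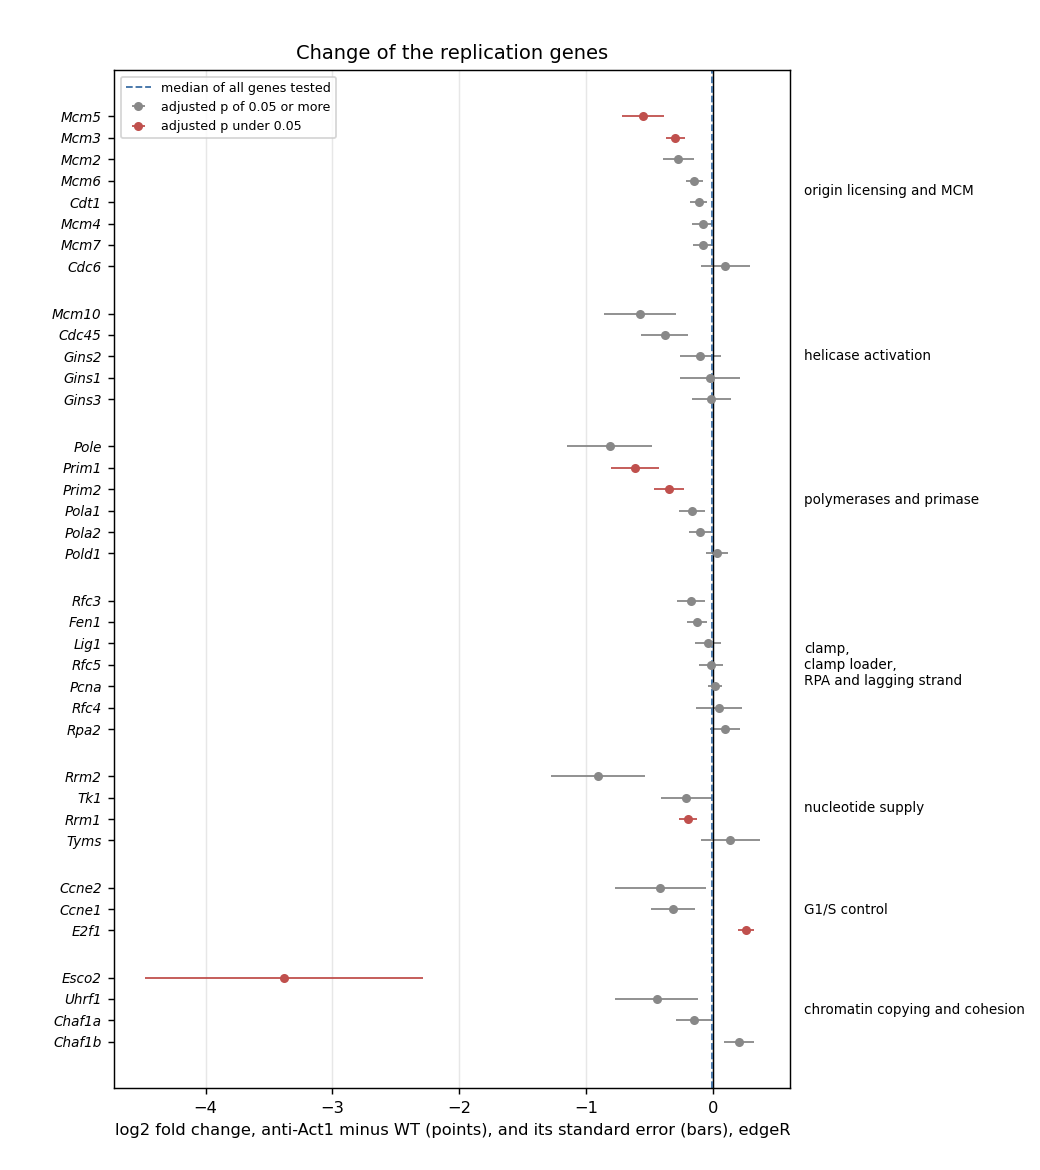
Log2 fold change (anti-Act1 minus WT) of each member with its standard error derived from the edgeR fit, grouped by role. Red marks an edgeR adjusted p under 0.05, and the dashed line is the median of all genes tested at -0.0046. E2f1 at 0.26 is the only red point to the right of 0, and Esco2 at -3.38 lies far to the left with the widest bar.

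Helicase activation held no gene called by edgeR or DESeq2, against 20.7% of all genes by edgeR. All 5 members had values below 0 (median -0.10), against 51% of all genes. Of the 5, 2 had an unadjusted edgeR p under 0.05, against 3918 of the 12494 genes tested. Mcm10, a scaffold needed to activate the loaded helicase, had 1.62 and 1.49 CPM under the WT label and 1.23 and 0.842 CPM under the anti-Act1 label (log2 fold change -0.58, SE 0.28, edgeR adjusted p = 0.154). Cdc45, the helicase cofactor, had 4.04 and 2.94 CPM against 2.83 and 2.51 CPM (-0.38, SE 0.19, edgeR adjusted p = 0.153). Both had non-overlapping groups that were lower under the anti-Act1 label, as had 28.7% of all genes tested. The libraries labelled WT differed in Cdc45 from each other by more than the gap between the groups. Cdc45 moved with single libraries, to -0.14 (edgeR adjusted p = 0.76) without WT replicate 1 and to -0.59 (edgeR adjusted p = 0.0445) without WT replicate 2. The GINS genes Gins1, Gins2 and Gins3 overlapped, with values of -0.02, -0.10 and -0.01, and each turned sign with a library left out.

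The polymerase and primase genes had the lowest median of the fork groups (-0.26), and both primase subunits fell. Prim1 (chr10:128015168-128030037, plus strand) encodes the catalytic subunit that makes the RNA primer. It had 3.75 and 3.33 CPM under the WT label and 2.67 and 1.92 CPM under the anti-Act1 label (log2 fold change -0.62, SE 0.19, edgeR adjusted p = 0.0145). Prim2 (chr1:33453810-33669795, minus strand), the regulatory subunit, had 9.53 and 8.92 CPM against 7.92 and 6.56 CPM (-0.35, SE 0.12, edgeR adjusted p = 0.0311). For both genes the groups did not overlap and anti-Act1 replicate 2 was the lowest library. Without that library the edgeR adjusted p was 0.249 for Prim1 (log2 fold change -0.40) and 0.371 for Prim2 (-0.22), and without WT replicate 1 it was 0.102 (-0.53) and 0.144 (-0.30). Over all alternatives the adjusted p ran from 0.00374 to 0.249 for Prim1 and from 0.0111 to 0.371 for Prim2.

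Pole, the catalytic subunit of the leading strand polymerase epsilon, had 1.08 and 1.28 CPM under the WT label and 0.615 and 0.733 CPM under the anti-Act1 label. The log2 fold change came to -0.81 (SE 0.34, edgeR adjusted p = 0.0806), so its difference was larger than that of Prim1 but less certain, with 38 to 97 counts per library. Pola1, the catalytic subunit of polymerase alpha, had 12.5 and 11.9 CPM against 11.7 and 10.0 CPM (-0.17, SE 0.10, edgeR adjusted p = 0.277). Pola2, its accessory subunit, and Pold1, the catalytic subunit of polymerase delta, had overlapping groups and values of -0.10 and 0.03.

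The clamp, its loader and the lagging strand genes had small values. None of the 7 members was called by edgeR or DESeq2, against 20.7% of all genes by edgeR, and their median was -0.01. In edgeR 0 had an unadjusted p under 0.05, against 3918 of the 12494 genes tested. The groups overlapped in 6 of the 7 members, against 5359 of the 12494 genes. Pcna, the sliding clamp, was by far the most abundant member per length, at 107 to 114 FPKM. It had 142 and 136 CPM under the WT label and 136 and 146 CPM under the anti-Act1 label (log2 fold change 0.02, SE 0.05, edgeR adjusted p = 0.848), and its sign turned to -0.01 when library totals alone scaled the counts. Pcna and Tyms have pseudogene copies named in the annotation, so reads could be shared. Fen1, the flap nuclease that trims lagging strand fragments, was the member with non-overlapping groups, at 20.2 and 19.95 CPM against 18.6 and 18.3 CPM (-0.12, SE 0.08, edgeR adjusted p = 0.315). The loader genes Rfc3, Rfc4 and Rfc5 had values of -0.17, 0.05 and -0.01, the single-strand binding gene Rpa2 had 0.10 and the ligase gene Lig1 had -0.04.

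Of the nucleotide supply genes, Rrm1 fell. Rrm1 (chr7:102441695-102469771, plus strand) encodes the large subunit of ribonucleotide reductase, the enzyme that makes deoxyribonucleotides. It had 28.7 and 27.8 CPM under the WT label and 24.8 and 24.5 CPM under the anti-Act1 label (log2 fold change -0.20, SE 0.07, edgeR adjusted p = 0.0413). This call was the least secure of the 7. It was lost when any 1 of the 4 libraries was left out, with log2 fold changes of -0.22 to -0.18, and its adjusted p ran from 0.025 to 0.204 over the alternatives. Rrm2, the small subunit that is made mainly in S phase, had 0.789 and 1.22 CPM against 0.599 and 0.476 CPM (-0.91, SE 0.37, edgeR adjusted p = 0.0757). Rrm2 had the largest difference of the group but only 26 to 93 counts per library, and was called without WT replicate 1 (-1.18, edgeR adjusted p = 0.0347). The thymidylate synthase gene Tyms had a log2 fold change of 0.14 and the thymidine kinase gene Tk1 -0.21, and neither passed the test.

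E2f1 (chr2:154559407-154569892, minus strand), a transcription factor of the G1/S boundary that is itself counted among its targets, moved the other way from the 6 that fell. It had 44.3 and 41.1 CPM under the WT label and 50.2 and 52.3 CPM under the anti-Act1 label (log2 fold change 0.26, SE 0.06, edgeR adjusted p = 0.00128). Both libraries labelled anti-Act1 were higher, and the call held with each library left out, with log2 fold changes of 0.21 to 0.32. It was lost in 1 of 14 alternatives, the unfiltered limma fit on FPKM, at an adjusted p of 0.0717, within a range from 0.000161. The cyclin E genes, whose products activate Cdk2 for entry into S phase, did not pass the test. Ccne1 had 3.34 and 3.95 CPM against 2.90 and 2.98 CPM (-0.31, SE 0.17, edgeR adjusted p = 0.216), with groups that did not overlap, and Ccne2 had -0.41 with groups that did.

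Esco2 (chr14:65819038-65833994, minus strand) encodes an acetyltransferase that establishes sister chromatid cohesion in S phase. It had 11 and 17 counts under the WT label and 0 and 2 counts under the anti-Act1 label. Only the libraries labelled WT carried it past the filter on low counts, so its call could hardly have gone the other way. Scaled to depth, the libraries labelled WT held 11.6 times as many reads, with an exact 95% interval from counting of 2.92 to 100.4. The 0 in anti-Act1 replicate 1 allows up to 0.0486 CPM if each read counts alone, and more if reads count as pairs. Counted as read pairs the ratio was 12.4, with an interval of 1.91 to 523. The interval covers counting error only. The edgeR log2 fold change was -3.38 (SE 1.09, adjusted p = 0.0208), a value that depends on the fit at such low counts. Leaving out WT replicate 2 ended the call (-3.16, edgeR adjusted p = 0.0973), as did leaving out anti-Act1 replicate 1 (-2.37, edgeR adjusted p = 0.225) or dropping the filter on low counts (edgeR adjusted p = 0.0799), within a range of 0.0191 to 0.225.

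The genes that copy chromatin did not pass the test. Uhrf1, which brings the maintenance methyltransferase to new DNA, had 1.18 and 1.13 CPM under the WT label and 0.664 and 1.04 CPM under the anti-Act1 label (log2 fold change -0.44, SE 0.33). Chaf1a and Chaf1b, subunits of the histone chaperone CAF-1, went in opposite directions at -0.15 and 0.21. Chaf1b was higher in both libraries labelled anti-Act1, at 9.21 and 8.46 CPM against 8.05 and 7.26 CPM, but with an edgeR adjusted p of 0.222.

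**Figure D3:**
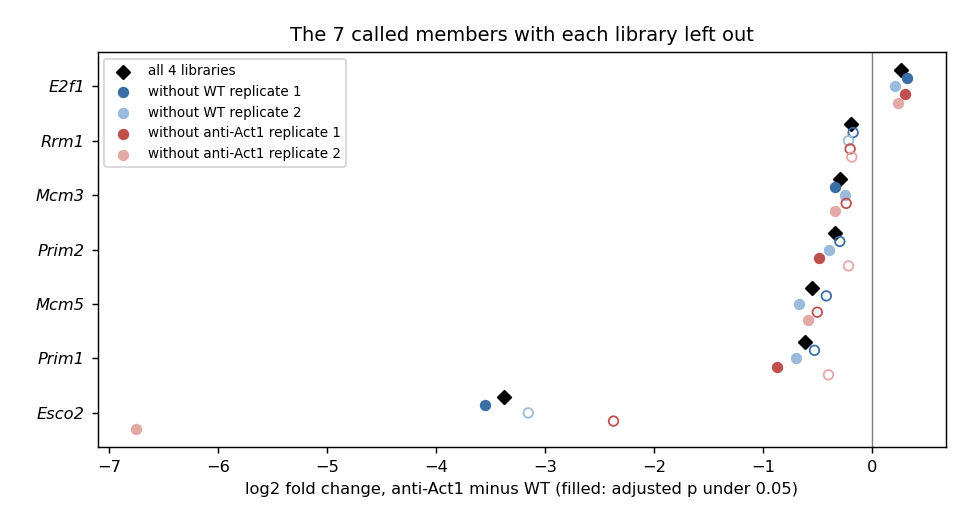
Log2 fold change (anti-Act1 minus WT) of the 7 called members in all 4 libraries (black diamonds) and with each library left out in turn (colored points); filled points have an edgeR adjusted p under 0.05. E2f1 stays filled throughout, Rrm1 has no filled point with a library left out, and Esco2 ranges from -6.75 to -2.37.

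No called member changed sign in any alternative that gave it a value (9 for Esco2 and 14 for the others). DESeq2 called 1 member lower, Mcm3, and 1 higher, E2f1, against 902 lower and 1077 higher of the 12190 genes it tested. The larger share of lower calls among members in edgeR was thus not seen in DESeq2. With a library left out, 1 group keeps a single library, and the number of members called lower varied with the library left out. The median ran from -0.17 to -0.13 with a library left out.

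The lean of the members was seen in every pair of libraries taken across the groups. The median difference of log2 CPM was -0.17 for anti-Act1 replicate 1 and -0.16 for anti-Act1 replicate 2 against WT replicate 1, and -0.17 and -0.11 against WT replicate 2. Within groups it was -0.03 between the WT libraries and 0.06 between the anti-Act1 libraries. Over all genes tested each of the 6 medians lay within 0.01 of 0. The 4 pairs across groups share libraries, so they are not independent.

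**Figure D4:**
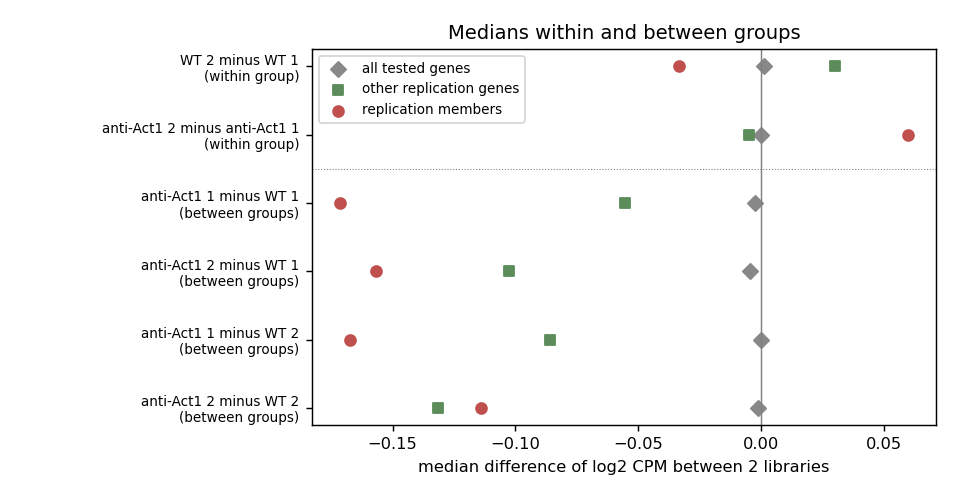
Median difference of log2 CPM between each pair of libraries, for the 37 members (red circles), the other replication genes (green squares) and all genes tested (grey diamonds). Members lie between -0.17 and -0.11 for the 4 pairs across groups and at -0.03 and 0.06 for the 2 pairs within a group, while all genes stay at about 0.

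Members with low levels leaned further. The 18 members below the members' median level had a median log2 fold change of -0.35, and the 19 at or above it had -0.10, while all genes tested in the same ranges of level had medians of 0.01 and -0.01. This difference by level was not tested. Both medians of the members were below 0, and 3 genes of each level range were called lower. Of all genes tested, 191 of 3726 in the lower range and 1029 of 8768 in the upper range were called lower. Standard errors were larger at low levels, and their part in which members were called was not tested.

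A second list of 103 replication and G1/S genes outside the 37, of which 100 were tested, gave the setting. Of these, 16 were lower, against 9.76% of all genes, 3 were higher, against 10.9%, and 81 did not pass the test. The median log2 fold change was -0.08, with 71 of 100 values below 0, against 51% of all genes. The steepest fall was that of Ccnd1, which encodes the cyclin D1 that couples growth factor signals to G1 progression. It had 13.1 and 13.5 CPM under the WT label and 4.13 and 4.93 CPM under the anti-Act1 label (log2 fold change -1.55, SE 0.12, edgeR adjusted p = 9.11e-15). Myc, a growth-linked transcription factor, had 3.67 and 3.76 CPM against 2.36 and 2.01 CPM (-0.76, SE 0.18, edgeR adjusted p = 0.00161). Pclaf, a Pcna-binding factor listed under an older symbol, fell by 1.34 on the log2 scale (SE 0.44, edgeR adjusted p = 0.0248) from 0.805 and 0.791 CPM to 0.437 and 0.183 CPM. Its call was lost in 5 of 12 alternatives. Rif1, which sets the timing of origin firing, fell by 0.47 (SE 0.08, edgeR adjusted p = 1.68e-05), and the CDK inhibitor gene Cdkn2c fell by 0.44 (SE 0.15, edgeR adjusted p = 0.0344). The Cdkn2c call was lost in 6 of 14 alternatives, among them each library left out, with adjusted p up to 0.211.

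The 3 genes that rose were also regulators of G1. Cdkn1c, which encodes the CDK inhibitor p57, had 8.76 and 8.50 CPM under the WT label and 16.3 and 16.0 CPM under the anti-Act1 label (log2 fold change 0.90, SE 0.10, edgeR adjusted p = 3.55e-10). Cdkn1a, which encodes the CDK inhibitor p21, had 354 and 347 CPM against 469 and 468 CPM (0.42, SE 0.05, edgeR adjusted p = 5.12e-09). Ccnd3, which encodes cyclin D3, had 39.8 and 41.1 CPM against 51.8 and 50.6 CPM (0.34, SE 0.06, edgeR adjusted p = 3.09e-05). All 3, together with Ccnd1 and Myc, kept their calls in each of 14 alternatives. Of the other CDK inhibitor genes, Cdkn1b had a log2 fold change of 0.06 and Cdkn2d 0.19, and neither passed the test, although Cdkn2d was called without anti-Act1 replicate 1 (0.31, edgeR adjusted p = 0.0139). The 9 tested genes of the E2F and Rb families other than E2f1 had values of -0.44 to 0.02. None was called by edgeR, against 20.7% of all genes. An unadjusted edgeR p under 0.05 was found in 1 of the 9, against 3918 of the 12494 genes tested.

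Within that second list, origin recognition, licensing and firing had 5 of 18 genes lower (median -0.11), other chromatin copying and cohesion 5 of 16 (median -0.18), other fork subunits 1 of 24 (median -0.04) and other nucleotide supply 1 of 14 (median -0.02), to be read against the 9.76% of all genes that were lower. In none of these 4 groups was a gene higher.

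Genes of the later steps of the cycle had a lower median than the replication genes. Of 24 tested G2/M genes, 3 were lower by edgeR, against 9.76% of all genes, and none higher, against 10.9%. Values below 0 were found in 20 of them, against 51% of all genes. An unadjusted edgeR p under 0.05 was found in 6, against 3918 of the 12494 genes tested. The median log2 fold change was -0.25, which moved to -0.39 without anti-Act1 replicate 1 and to -0.12 in unfiltered limma on FPKM, and the 2 libraries labelled anti-Act1 differed from each other by a median of -0.13. DESeq2 called 2 lower and none higher. Top2a, the topoisomerase that untangles sister chromatids, had 4.33 and 4.77 CPM under the WT label and 2.93 and 2.62 CPM under the anti-Act1 label (-0.71, SE 0.17, edgeR adjusted p = 0.000973). Kif23, a motor of cytokinesis, fell by 0.68 (SE 0.16, edgeR adjusted p = 0.00133), and the centromere histone gene Cenpa fell by 0.21 (SE 0.07, edgeR adjusted p = 0.0274). The Cenpa call was lost in 6 of 14 alternatives, among them each library left out (adjusted p up to 0.225), and the Kif23 call in 2, one of them without anti-Act1 replicate 1 (log2 fold change -0.48, edgeR adjusted p = 0.0832). The difference between the medians of the lists was not tested.

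**Figure D5:**
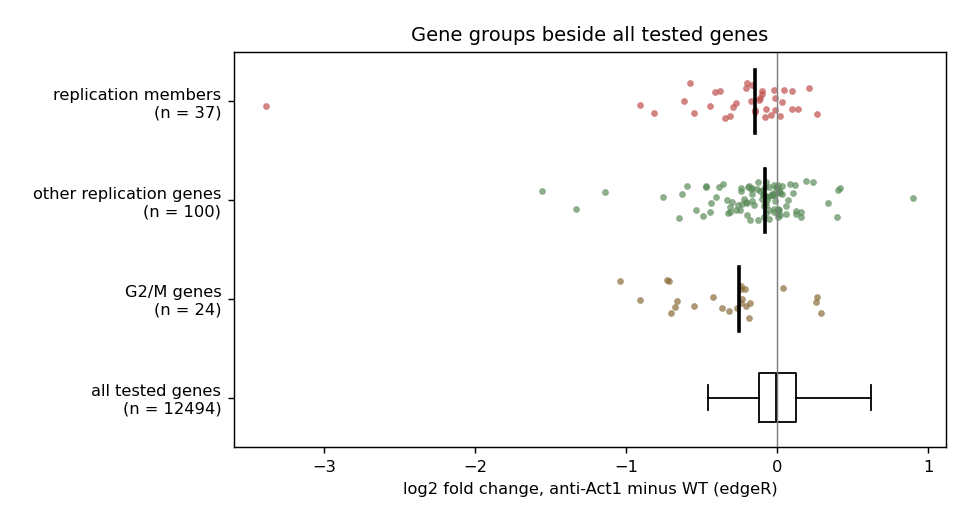
Log2 fold change (anti-Act1 minus WT) of each of the 37 members, of 100 other replication genes and of 24 G2/M genes (points, with the list median as a black bar), beside all 12494 tested genes (box from the first to the third quartile, with whiskers to the 5th and 95th percentiles). The medians are -0.14, -0.08, -0.25 and -0.0046.

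Markers of immature and other myeloid cells are set beside these genes. Of 7 neutrophil markers, 6 were tested, S100a9, Retnlg, Ngp and Ltf were lower and S100a8 was higher under the anti-Act1 label. Of all genes tested, 9.76% were lower and 10.9% higher. Retnlg had 22 and 19 counts under the WT label against 2 and 0, and Ngp 43 and 47 against 11 and 5. Both passed the filter on low counts only through the libraries labelled WT, so they could hardly have been called higher. The list summed to 7.09 to 7.43 CPM under the WT label and 6.50 to 7.61 CPM under the anti-Act1 label. The 7 markers of myeloid progenitors, of which 4 were tested and none called by edgeR, summed to 1.95 and 2.07 CPM against 1.46 and 1.39 CPM. Of these 7, Kit, Elane and Mpo had non-overlapping groups that were lower under the anti-Act1 label, as had 28.7% of all genes tested. Elane had 12 and 15 counts against 2 and 9, and Mpo, which was not tested, had 4 and 13 against 0 and 0. The groups overlapped for Prtn3, Cd34, Flt3 and Ctsg. Of the 10 macrophage markers, Itgam, Mertk, Aif1 and Mrc1 were lower and Cd14 was higher. The part of these cells in the replication result was not tested.

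Per unit length, the members spanned a wide range of levels. After Pcna came E2f1 at 15.3 to 19.0 FPKM, Cdt1 at 13.0 to 14.8 FPKM, Mcm6 at 9.84 to 11.4 FPKM and Mcm3 at 8.13 to 10.8 FPKM. The ranges of E2f1 and Cdt1 did not overlap, while those of Mcm6 and Mcm3 did. At the lower end were Ccne2 at 0.195 to 0.419 FPKM, Uhrf1 at 0.189 to 0.338 FPKM, Mcm10 at 0.183 to 0.360 FPKM, Pole at 0.0861 to 0.181 FPKM and Esco2 at 0 to 0.0781 FPKM. Among these 5, the ranges of Ccne2, Uhrf1 and Mcm10 lay over one another. Besides Mcm7, the exons of Ccne2, Cdc45, Chaf1a, Fen1, Gins2, Lig1, Pole, Rfc4, Rfc5 and Tk1 overlap another gene, so their levels are less certain, and none of the 7 called members is among them.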

How the data were processed

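RNA of 4 macrophage libraries was sequenced by the authors as read pairs from a NEBNext Ultra kit. The study's methods name TopHat with a Bowtie index, and the submitters' processing notes list Bowtie 0.12.2, HTSeq 0.6.1 and the builds mm8 and mm10; the annotation and the strand setting are not given in the sources used here. The authors deposited raw read counts per gene and FPKM values for the same libraries. Of low counts, 76.0% to 78.2% were even, against about 50% of high ones, so both reads of a pair appear to have been counted.

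Counts were tested with edgeR 4.0.16 (R 4.3.3): TMM, filterByExpr, condition only, two-sided quasi-likelihood F test, Benjamini-Hochberg adjustment over 12494 genes. A gene is called at an adjusted p under 0.05. Standard errors were derived from the same fit, as the absolute log2 fold change divided by the square root of the F statistic. Level comparisons between genes use the deposited FPKM. An exact permutation test of 2 against 2 libraries cannot go below p = 0.333, so none is given. DESeq2 1.42.0 and limma 3.58.1, on log2(FPKM + 1) or log2(FPKM + 0.1), were alternatives, with other scalings, filters and left-out libraries. The fits were first tested on simulated data.

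Totals of 55435063 to 75062945 counts set the precision: 3 counts are 0.0395 to 0.0549 CPM. Replicates differed by more than sampling noise (chi-square per degree of freedom 10.8 for WT and 7.45 for anti-Act1), so no pair was taken as 1 library. The 37 members, the other lists (103 replication and 25 G2/M genes, 9 marker lists) and the tests were chosen with earlier results of these data known. All members could be named. Of the other replication and G2/M genes, those named are the 5 largest rises and 5 largest falls among called genes and the E2F, Rb and CDK inhibitor genes, and the cohesin genes in the closing section were chosen after their values were seen. Promoter windows came from RefSeq (GRCm38.p6) and gene positions from GENCODE M21, matched by symbol.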

Additional observations from a re-analysis of the deposited data

How the results depend on the processing

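Over 14 alternatives, of which 9 gave Esco2 a value, the 7 called members gave 93 values besides the reported ones: 65 kept the direction and the call, 28 kept the direction and lost the call, and none changed sign. The 30 other members gave 406 values, of which 377 kept direction and side, 6 passed the threshold and 23 changed sign. The members' median was -0.11 in limma on log2(FPKM + 1) with a filter and -0.10 without one. With a library left out, it ran from -0.17 to -0.13 and the members called lower from 2 to 5, with 1 called higher throughout. DESeq2 called 1 member lower, against 902 of all genes. Unfiltered limma called 0 members lower and 0 higher, 3 other replication genes lower, and 583 genes higher and 509 lower of all; limma with log2(FPKM + 0.1) called 910 genes higher. Other replication genes called lower ran from 9 to 16, and all genes called lower from 754 to 1209, with a library left out.

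Members near 0 turned sign. Pcna was -0.0060 with library totals only, -0.0064 in the 3 limma fits, and ran from -0.035 to 0.076 with a library left out. Other log2 fold changes that turned with a library left out ran from -0.17 to 0.022 for Mcm4, -0.11 to 0.35 for Cdc6, -0.17 to 0.12 for Gins1, -0.20 to 0.0042 for Gins2, -0.14 to 0.10 for Gins3, -0.21 to 0.0084 for Pola2, -0.0081 to 0.079 for Pold1, -0.16 to 0.28 for Rfc4, -0.15 to 0.13 for Rfc5, -0.048 to 0.23 for Rpa2, -0.14 to 0.058 for Lig1, -0.75 to 0.0098 for Ccne2, -0.35 to 0.045 for Chaf1a and, outside the members, -0.0053 to 0.13 for Cdkn1b. The cause was not tested.

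Replicate numbers did not pair the libraries (correlation of same-numbered deviations -0.03). With the replicate block, 5 members were lower and 1 higher, with Rrm1 lost (log2 fold change -0.20, edgeR adjusted p = 0.0529), and the median was -0.14. Counts were also halved, an alternative chosen after seeing the data, since most low counts were even: 6 members were lower, with Pole in place of Esco2, which was not tested there. Without a filter on low counts and with at least 10 counts in every library, Rrm2 was called lower and Esco2 was not. Depth limits 7 members with under 100 counts in at least 1 library: Esco2, Rrm2, Pole, Ccne2, Uhrf1, Mcm10 and Gins1.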

Other observations

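Some cohesin genes in the second list of replication genes were picked out after their values were seen. Smc1a, Smc3, Stag2 and Pds5b were lower under the anti-Act1 label, and Rad21, Stag1, Pds5a, Wapl, Esco1 and Cdca5 did not pass the test. Of all genes tested, 9.76% were lower. Smc1a and Smc3 encode the coiled arms of the ring that holds sister chromatids and loops chromatin. Smc3 was at 33.2 and 34.8 CPM under the WT label and 27.8 and 26.9 CPM under the anti-Act1 label (log2 fold change -0.31, SE 0.07, edgeR adjusted p = 0.000466). Smc1a, at 72.3 and 71.6 CPM against 60.7 and 59.4 CPM, had -0.26 (SE 0.06, edgeR adjusted p = 0.000496). The ring subunit gene Stag2 had -0.24 (SE 0.05, edgeR adjusted p = 0.000766) and the regulator gene Pds5b -0.27 (SE 0.07, edgeR adjusted p = 0.00437). For each of the 4 genes both libraries labelled anti-Act1 lay below both labelled WT, as in 28.7% of all genes tested. Genes picked because they were called lower are likely to show this, so it adds no support. Rad21, the subunit that closes the ring, had -0.03 (SE 0.05, edgeR adjusted p = 0.761) with overlapping groups. The other 5 that did not pass had values of -0.32 to -0.07. Esco2 acts on this ring, but these genes also act outside S phase, and a shared source of the differences was not tested.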
